A study of Mus musculus with 4 samples.

Results

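The cells described here were 768 of 23188 cells kept from the mouse gut wall at stage E12.5, picked out by Tac2, Wnt4 and Slit2 together with Isl1, Adamtsl1, Scrn1 and Ccl2. A cell was a member when unique molecular identifiers (UMIs, each counting 1 captured transcript) of at least 3 of these 7 genes were found in it and none of Upk3b, Sox10 and Prph, which mark mesothelium, neural crest cells and neurons. Members were compared, within each library, with 14297 cells that had no UMI of any of the 7 genes or of the 3 exclusion genes. The 7 genes chose the members and had been picked on these same cells, so their levels are given as a description without a test.

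The 4 libraries were 2 of small intestine (SI) and 2 of large intestine with the cecum (LI), dissected from E12.5 embryos of C57BL/6 background that carried ubiquitous yellow fluorescent protein. Each library came from several embryos pooled, and which library came from which of the 2 experiments is not given in the labels. All cells had been sorted as live, fluorescent, β1 integrin+ and CD45-, Ter119-, CD31- and EpCAM-, so leukocytes, erythroid cells, endothelium and epithelium had been gated out of every library. Some labels speak of adult or colonic tissue, and stage and region follow the sample titles here.

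Fibroblasts (FB) of the developing gut lie between an epithelium that secretes hedgehog proteins and an outer mesothelial covering, with smooth muscle forming in between. Hedgehog proteins act on the nearby mesenchyme, where they raise their own receptor gene Ptch1 and the forkhead genes Foxf1 and Foxf2. SLIT proteins and WNT4 are secreted signals that steer cells and growing axons or act on neighbouring cells, and neurokinin B, the product of Tac2, is a tachykinin peptide.

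Between 4786 and 6595 cells per library passed the filter (1000 or more genes found and under 10% of UMIs mitochondrial), out of 31630548 to 62886525 UMIs per library. LI replicate 1 was the shallowest, with a median of 4034 UMIs per comparison cell against 8081 to 8748.5 in the other libraries. Members held more UMIs than comparison cells in every library, with medians of 6642, 11972, 9325 and 9123. Where 4 values are given, here and below, they stand for LI replicate 1, LI replicate 2, SI replicate 1 and SI replicate 2 in this order. A rule that needs 3 genes to be detected picks deeper cells, so each main comparison was repeated with comparison cells matched in UMIs. Among the kept cells, 52 barcodes occurred in more than 1 library. Cells with the highest doublet scores made up 5.22% to 7.63% of members and 2.38% to 4.54% of comparison cells.

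Members were a small share of each library. They were 115 cells or 1.79% (95% Wilson interval 1.49% to 2.14%) in LI replicate 1 and 168 cells or 3.51% (3.03% to 4.07%) in LI replicate 2. In SI replicate 1 they were 131 cells or 2.44% (2.06% to 2.89%), and in SI replicate 2 they were 354 cells or 5.37% (4.85% to 5.94%), intervals that cover counting error only. The mean was 3.90% ± 2.07 (SD, n = 2) in SI and 2.65% ± 1.22 (SD, n = 2) in LI, and the libraries of both regions overlapped. The difference of 1.26 percentage points had p = 0.667 in a two-sided exact permutation test, in which 2 libraries against 2 cannot go below 0.333, and it became -0.208 without SI replicate 2. With every cell thinned to 3000 UMIs before the rule was applied, the shares fell to 0.700%, 0.633%, 0.340% and 1.22%, with SI replicate 2 again the highest.

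Among the genes of the rule, Slit2, whose product is a ligand of ROBO receptors, was found in the largest share of members in each of the 4 libraries (77.4%, 82.7%, 76.3% and 89.8%). Isl1, which encodes a LIM homeodomain transcription factor, was found in 73.9%, 52.4%, 32.8% and 33.9% of members. As UMIs per 1e6 UMIs of the summed members (CPM), Slit2 stood at 190.2 and 154 in the LI libraries and at 133 and 225 in the SI libraries. Isl1 stood at 256 and 103 CPM in LI and at 59.7 and 90.6 CPM in SI, so both LI libraries were above both SI libraries. The 2 genes lie at chr5:47983138-48307733 on the plus strand and chr13:116298281-116309689 on the minus strand of mm10.

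Tac2 (chr10:127724478-127731768, plus strand) was at 51.8 and 26.3 CPM in LI and at 84.2 and 60.7 CPM in SI, from 40, 60, 110 and 225 UMIs. It was seen in 26.1%, 25.6%, 55.0% and 42.4% of members, more often in both SI libraries than in both LI libraries. Wnt4 (chr4:137277489-137299726, plus strand), a WNT ligand, was at 199 and 75.5 CPM in LI and at 98.8 and 120.0 CPM in SI, with LI replicate 1 the highest. The SI and LI libraries overlapped for Wnt4. At these UMI counts a member in which a gene was not seen may still express it.

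Adamtsl1 (chr4:85514172-86428385, plus strand, overlapping Sh3gl2), which encodes a secreted matrix glycoprotein, was at 71.2 and 105 CPM in LI and at 78.1 and 107 CPM in SI. Scrn1 (chr6:54501173-54566489, minus strand, with Wipf3 on the other strand), encoding the cytosolic protein secernin 1, was at 155 and 64.5 CPM in LI and at 91.1 and 69.1 CPM in SI. Ccl2 (chr11:82035571-82037453, plus strand), a chemokine that attracts monocytes, was at 53.1 and 25 CPM in LI and at 37.5 and 90.6 CPM in SI and was found in 14.3% to 28.8% of members. The 2 regions overlapped for each of these 3 genes.

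**Figure D1:**
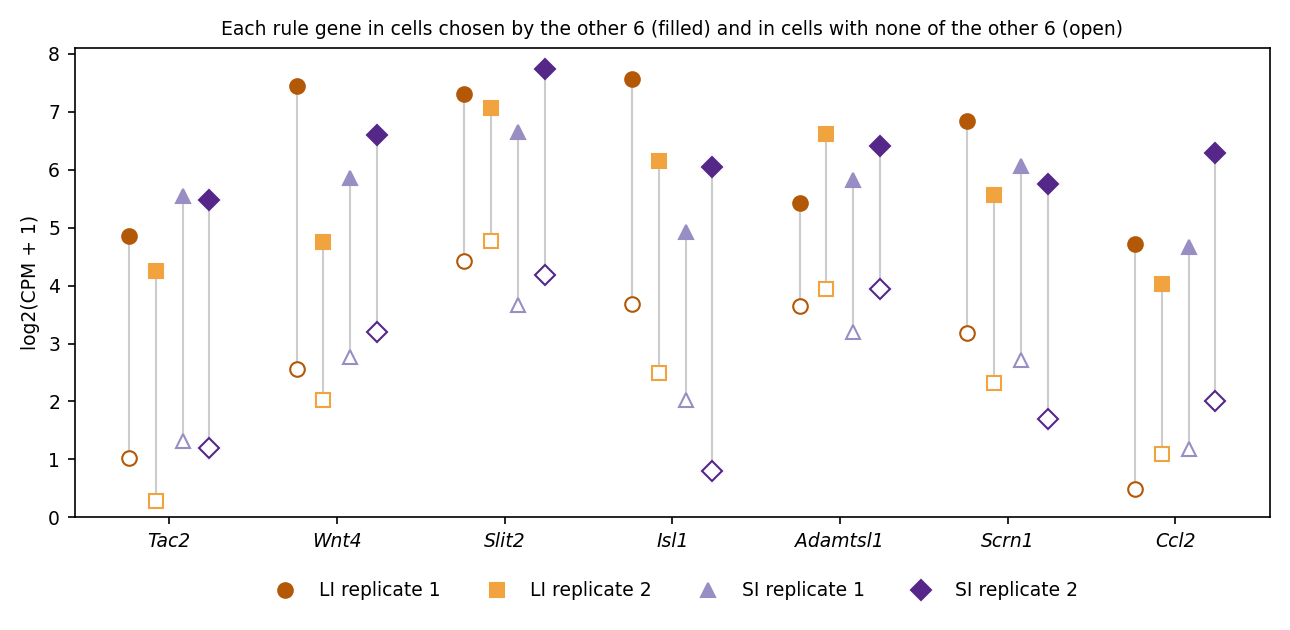
Level of each of the 7 genes of the rule, as log2(CPM + 1), 1 point per library, in cells chosen by at least 3 of the other 6 genes (filled) and in cells with no UMI of the other 6 (open). Every filled point lies above the open point of its library, for Tac2 for example at 18.1 to 45.8 CPM against 0.213 to 1.5 CPM. The 7 genes had been picked on these same cells, so the levels are a description only.

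When each gene was left out of the choice and cells were picked by the other 6, it was higher than in cells without the other 6 in all 4 libraries. All 7 genes had been picked on these same cells, so this is a description only. Tac2 was at 27.9, 18.1, 45.8 and 43.4 CPM in the cells so chosen, against 1.03, 0.213, 1.5 and 1.30 CPM. Cells thinned to 3000 UMIs and holding at least 2 UMIs of Sox10 should lack these genes. Tac2 was found in 0 of them in any library and Slit2 in 0% to 3.33%. Their median depth before thinning was 12909 to 22166 UMIs. In thinned Upk3b cells Slit2 was found in 9.86% to 16.4%, and in Prph cells (11 to 43 a library) in 20% to 27.3%. In thinned cells without the other 6 genes Slit2 was found in 4.43% to 8.51%. Against such cells, Scrn1 was likewise more frequent in Upk3b and Prph cells of every library, and Isl1 in Upk3b cells. Isl1 was found in 0% of Prph cells and Tac2 in 0% to 1.06% of Upk3b cells. Pairs of the 7 genes were scored in thinned cells by the log2 odds ratio of being found together. Of 21 pairs, 19 were above 0 in all 4 libraries, and 2 of 84 values were below 0, again a description of genes picked on these same cells. Tac2 with Slit2 ranged from 2.55 to 3.08 over the libraries (80 cells held both), Isl1 with Scrn1 from 2.58 to 3.93 (91 cells) and Slit2 with Adamtsl1 from 0.52 to 1.51 (157 cells).

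The genes of the rule seen in a member differed from cell to cell, which sparse UMIs and the requirement of at least 3 of 7 genes give in any case. Over all libraries the commonest trio was Slit2, Adamtsl1 and Scrn1, held by 192 members (18, 49, 36 and 89). In LI replicate 1 the commonest was Slit2, Isl1 and Scrn1 (42 members), and in SI replicate 2 it was Wnt4, Slit2 and Adamtsl1 (94 members). Wnt4, Slit2 and Adamtsl1 occurred together in 169 members, Slit2, Isl1 and Scrn1 in 161, and Tac2, Slit2 and Adamtsl1 in 147. The trio with Tac2 was held by 5 and 27 members in LI and by 29 and 86 in SI, and the trio with Isl1 by 42 and 40 members in LI and by 15 and 64 in SI. A cell can count in several trios.

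Members just inside the threshold, with exactly 3 genes of the rule, numbered 72, 109, 86 and 205. Cells just outside it, with exactly 2, numbered 191, 313, 281 and 447. Levels of genes outside the rule are given as a description, since the genes shown were chosen for their difference between members and cells with none. Of the 12 higher and 12 lower genes taken for description below, 9 went up and 12 down from 2 to 3 genes in all 4 libraries, 6 and 3 from 3 to 4 or more, and 3 of each at every step. Anxa2, which encodes a calcium-dependent membrane-binding protein, went from 138.5 to 239.3 CPM between cells with 2 and with 3 genes in LI replicate 1, from 65.4 to 110.5 in LI replicate 2, from 51.9 to 125.4 in SI replicate 1 and from 107.2 to 189.6 in SI replicate 2. Ptch1, the hedgehog receptor gene, went the other way in every library, from 101.8 to 68.4, 172.8 to 103.6, 115.8 to 86.0 and 104.7 to 59.1 CPM in the same order. Median depth between cells with 2 and with 3 genes went from 5514 to 6638.5 UMIs in LI replicate 1 and from 10575 to 11186 in LI replicate 2, was 9251 and 9264 in SI replicate 1, and went from 8670 to 8553 in SI replicate 2.

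**Figure D2:**
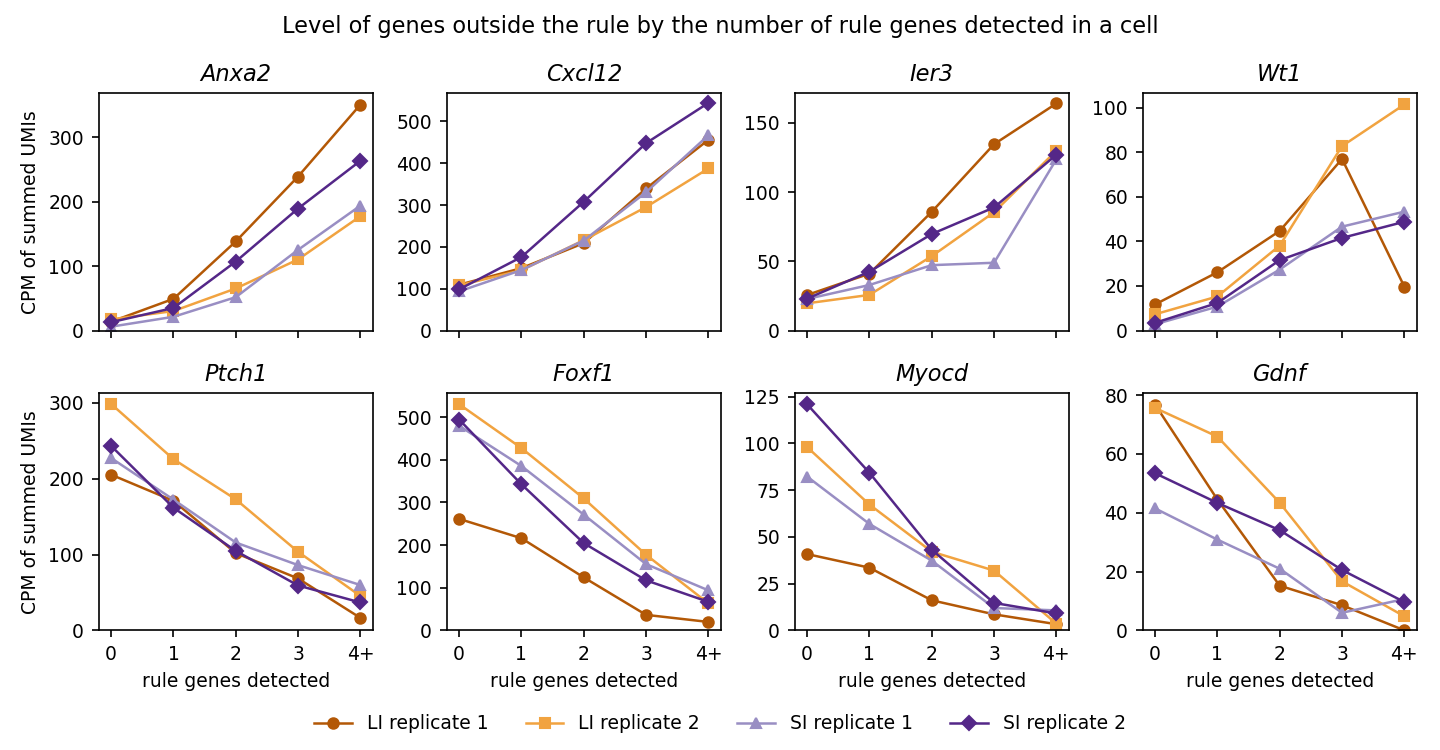
Level (CPM of summed UMIs) of 8 genes that the rule did not use against the number of rule genes found in a cell (0, 1, 2, 3, or 4 and more), 1 line per library. Anxa2, Cxcl12 and Ier3 rise and Ptch1, Foxf1 and Myocd fall at every step in all 4 libraries, and Wt1 drops from 76.9 CPM at 3 genes to 19.7 CPM at 4 and more in LI replicate 1.

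Against the comparison cells, members held more transcripts of 16 of 21 stress genes, 8 of 9 chemokine genes and 7 of 8 Notch genes, and fewer of 9 of 13 genes of the hedgehog response and inner FB. Summed counts were tested across the 4 libraries with library as a block by edgeR's quasi-likelihood test (Benjamini-Hochberg adjusted p under 0.05), and 1796 of 12645 genes were called, 14.2% of those tested. Of these, 1023 were higher in members (8.09% of those tested) and 773 were lower (6.11%). The median log2 fold change over all tested genes was -0.02. Of the called genes whose log2 CPM averaged over 5, whose direction was shared by all 4 libraries and that were called with matched comparison cells too, 359 were higher and 295 lower, and the 12 with the largest fold change in each direction were taken for description.

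The gene with the largest fold change among the higher ones was Anxa2 (chr9:69453620-69491795, plus strand, with Gm16144 on the other strand). It was at 283, 135, 150.1 and 223 CPM in members against 13.8, 17.4, 6.01 and 13 CPM in comparison cells. Every member value lay above every comparison value, with a log2 fold change of 3.99 ± 0.22 (SE, edgeR adjusted p = 4.4e-06). In cells thinned to 3000 UMIs, Anxa2 was found in 55.9%, 36.1%, 33.6% and 44.6% of members, in 3.56%, 5.47%, 1.64% and 3.35% of comparison cells and in 1.04% to 7.14% of Sox10 cells.

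The promoter of Anxa2 was the only one that held, among those of 11 of the 12 higher genes found in the table of promoters, the AP-1 motif TGACTCA, which Fos and Jun proteins bind, and it also held the motif GTGGGAA of CSL, the DNA-binding partner of Notch, as did the promoter of Hspb1 at position -172. That of Anxa2 is shown because members of both the stress and the Notch lists differ below. The windows come from the RefSeq promoters of GRCm38.p6 (250 bases before to 50 after the start), run 5′ to 3′ on the strand of the gene, and carry the motif in capitals. The AP-1 window, chr9:69453577-69453606, has the motif as its reverse complement starting at position -95 from the start site, and the CSL window, chr9:69453593-69453622, has it at -79.
Anxa2 AP-1 window: tccaagttggaTGAGTCAcccagcagggtg
Anxa2 CSL window: cacccagcaggGTGGGAAcaggccggggag
Both strands were searched. AP-1 occurred in 5.20% of 32851 promoters and CSL in 6.38%, and 2 of 13 promoters of the lower genes (Aldh1a1 and Mylk) held AP-1 too. No promoter of the 5 genes of the rule that were matched held AP-1, CSL or the GLI motif GACCACCCA. A match describes the letters only.

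Among secreted factors, Igf1, which encodes an insulin-like growth factor, was at 75.1 and 50.9 CPM in LI members and at 73.5 and 166 CPM in SI members, against 8.82, 16.2, 8.17 and 5.66 CPM in comparison cells. Its log2 fold change was 3.26 ± 0.41 (SE, edgeR adjusted p = 0.00042), with SI replicate 2 the highest of the members. Cxcl12, a chemokine that guides CXCR4-bearing cells, was at 386, 329, 379.8 and 491 CPM in members against 109.5, 108, 93.6 and 98.5 CPM. The members of each library were alike for this gene, and it rose by 1.95 ± 0.10 (log2, SE, edgeR adjusted p = 4.4e-06). Tgfb2, encoding a transforming growth factor, was at 137, 68.5, 105 and 92.0 CPM against 29.2, 24.6, 28.5 and 23.3 CPM (1.89 ± 0.12). Neither Cxcl12 nor Tgfb2 overlapped between members and comparison cells.

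The other 8 genes of this group were Hspb1, Sptssb, Gadd45b, Ier3, Itm2a, Flrt2, Pmp22 and Nefm, with log2 fold changes of 1.99 to 2.33. Itm2a, which encodes a transmembrane protein, was the most abundant, at 628 and 494 CPM in LI members and 953 and 878 CPM in SI members against 110.1, 135, 252 and 233 CPM. Flrt2, an adhesion and guidance protein that can bind UNC5 receptors, was at 67.3, 75.1, 49.8 and 90.6 CPM against 29.6, 42.9, 6.07 and 10.2 CPM. Nefm, a neurofilament gene, was at 335 CPM in LI replicate 1 and at 65.9, 39.8 and 103 CPM in the other members, so LI replicate 1 stood above the other libraries, against 25.5, 17.4, 29.3 and 35.4 CPM in comparison cells. Each of the 12 genes kept its call when any one library was left out.

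**Figure D3:**
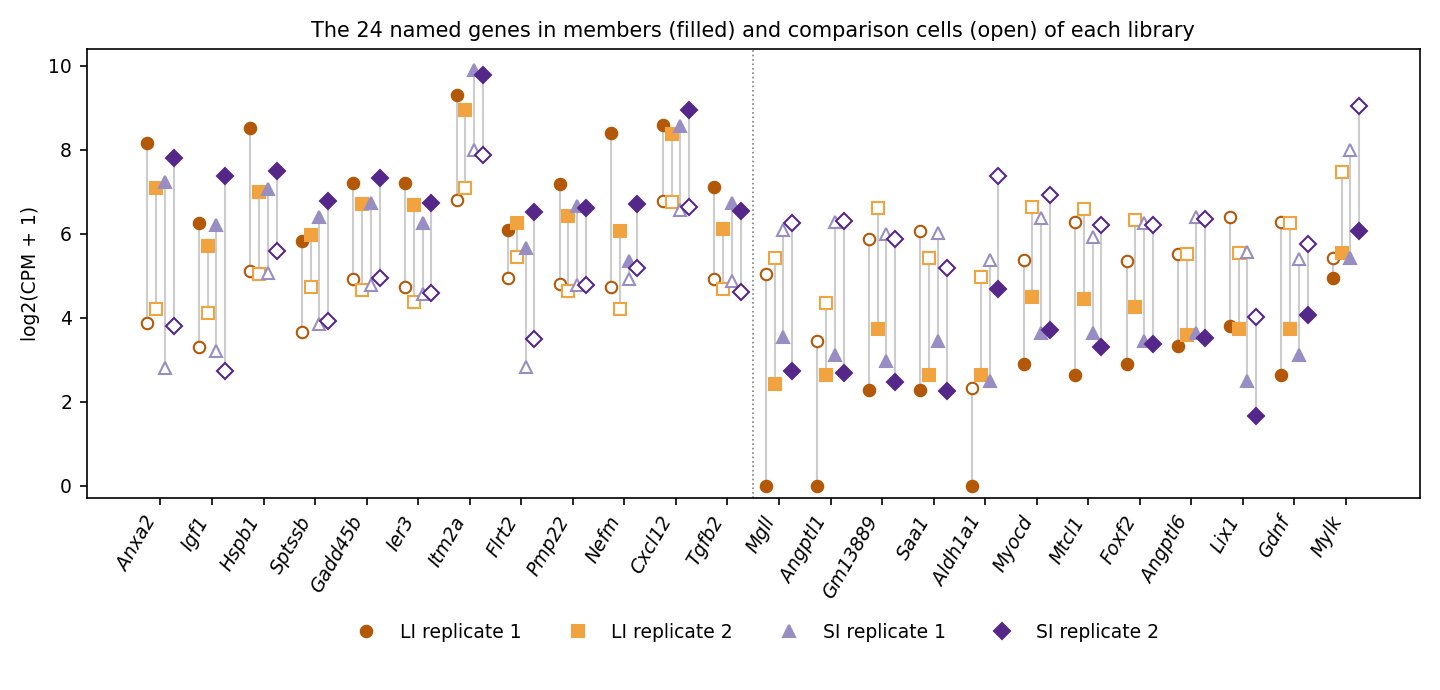
Level, as log2(CPM + 1), of the 12 higher genes (left of the dotted line) and the 12 lower genes (right) in members (filled) and comparison cells (open), 1 point per library joined within the library. For Anxa2 the members range from 135 to 283 CPM and the comparison cells from 6.01 to 17.4 CPM.

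Genes lower in members included those of hedgehog response and of the muscle program. Hhip, a hedgehog-binding feedback inhibitor, was at 1.29 and 6.15 CPM in LI members and at 2.30 and 2.43 CPM in SI members (1 to 14 UMIs) against 31.8 to 50.02 CPM in comparison cells. It fell by 3.56 on the log2 scale (SE 0.21, edgeR adjusted p = 5.3e-06). Ptch1 was at 47.9, 82.1, 76.6 and 49.1 CPM in members against 205, 299, 227 and 243 CPM (-1.96 ± 0.12), and Foxf1 at 29.8, 135, 133 and 94.7 CPM against 261, 531, 479.9 and 495 CPM (-2.21 ± 0.14). In all 3 genes every member library lay under every comparison library.

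Of 13 tested genes on the list of hedgehog response and inner FB genes, 9 fell and none rose, with a median log2 fold change of -1.94. Among them were Ptch1, Gli1, Hhip, Foxf1, Foxf2, Foxl1, Bmp3 and Bmp5, and 8 genes of the list were lower with matched comparison cells too. Foxf2 was at 6.47, 18.0, 9.95 and 9.44 CPM in members against 40.0, 78.9, 75.5 and 72.5 CPM (-2.62 ± 0.16). In thinned cells Ptch1 was found in 8.11% and 18.7% of LI members and in 22.1% and 12.4% of SI members, against 41.3%, 51.9%, 44.8% and 44.7% of comparison cells and 1.04% to 6.37% of Sox10 cells. None of the 8 promoters of this list that were matched held the GLI motif, which 0.253% of all promoters held.

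Mgll, which encodes a monoglyceride lipase, had no UMI in the members of LI replicate 1, which allows a level of up to 3.88 CPM, and was at 4.39, 10.7 and 5.67 CPM in the other members. Comparison cells were at 32.0, 42.1, 66.7 and 75.9 CPM, and the gene fell by 3.42 on the log2 scale (SE 0.23, edgeR adjusted p = 8.1e-06). Angptl1 and Angptl6, a pair of secreted angiopoietin-like proteins, fell by 3.31 and 2.61. Saa1, an acute-phase protein gene, was at 3.88, 5.27, 9.95 and 3.78 CPM in members against 65.9, 41.6, 63.7 and 35.3 CPM (-3.10 ± 0.17). Gm13889, whose position overlaps Gm27027 on the same strand, fell by 3.31, and Mtcl1 and Lix1 by 2.66 and 2.48.

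Myocd, a master coactivator of smooth muscle genes, was at 6.47, 21.5, 11.5 and 12.1 CPM in members against 40.8, 98.0, 82.3 and 121 CPM (-2.78 ± 0.18). Mylk, the myosin light chain kinase gene, was at 29.8, 45.7, 42.1 and 66.4 CPM against 42.0, 177, 255 and 523 CPM (-2.35 ± 0.26), lower within each library though the ranges overlapped. Synpo2 and Lmod1, which encode actin-associated muscle proteins, fell by 2.04 and 1.5. Of 13 smooth muscle genes 4 fell and 2 rose (Des and Itga8), with a median of -0.79. The summed level of the 13 was 1320, 1810 and 1960 CPM in members of the other 3 libraries than LI replicate 1 against 2890, 2939 and 6664 CPM, but 4925 against 1107 CPM in LI replicate 1. In the latter Acta2, the smooth muscle actin gene, was at 2008 CPM in members against 218 CPM, and 10 of 115 members held 53.7% of its UMIs (1036 CPM without them). In the other libraries Acta2 was at 305, 634 and 698 CPM in members against 1085, 1408 and 3022 CPM, so LI replicate 1 ran against the rest.

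The label of these cells as FB was checked against 13 FB genes, of which 6 rose and 1 fell in members (median 0.69). Pdgfrb, a receptor for platelet-derived growth factor, was at 95.8, 67.6, 66.6 and 82.3 CPM against 28.8, 27.4, 17.8 and 29.0 CPM (1.59 ± 0.11, edgeR adjusted p = 9.2e-06). The collagen genes Col1a1, Col1a2, Col3a1 and Col5a1 and the intermediate filament gene Vim rose, Col1a1 from 62.5, 174, 154 and 276 CPM in comparison cells to 324, 357, 309 and 459 CPM in members (1.24 ± 0.21). The gene that fell was Pdgfra, the usual marker of gut FB, at 56.9, 59.3, 85.0 and 79.3 CPM in members against 72.2, 108, 97.0 and 119 CPM (-0.52 ± 0.11, edgeR adjusted p = 0.00766). It was found in 30.4%, 49.4%, 46.6% and 49.4% of members and in 25.1%, 50.9%, 51.4% and 55.1% of comparison cells. In cells thinned to 3000 UMIs the shares were 11.7%, 13.9%, 29.0% and 20.9% of members against 18.5%, 27.0%, 24% and 27.7% of comparison cells, lower in members in 3 libraries and higher in SI replicate 1. The lower Pdgfra goes against the label, and place in the gut wall was not measured in dissociated cells, so the cells are called here by the rule that chose them.

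Markers of other cells of the gut wall moved in part. Of 6 tested pericyte genes 4 rose (Kcnj8, Abcc9, Mcam and Cspg4) and none fell, with a median of 1.66 and a summed level of the 7 listed genes of 114 to 205 CPM in members and 29.2 to 117 CPM in comparison cells. Kcnj8, a potassium channel gene, was at 33.6, 19.3, 35.2 and 66.6 CPM against 1.19, 2.77, 5.88 and 11.9 CPM (2.87 ± 0.29), whereas Rgs5, a defining pericyte gene, was at 23.3, 11, 24.5 and 28.9 CPM against 2.63, 11.3, 22.3 and 58.2 CPM (edgeR adjusted p = 0.893). Of 7 tested mesothelial genes 1 rose, Wt1, a transcription factor gene, at 54.4, 89.6, 49.0 and 44.8 CPM against 11.7, 7.29, 2.81 and 3.46 CPM (3.44 ± 0.24, edgeR adjusted p = 9.2e-06). In SI taken alone Wt1, Krt8 and Krt18 rose and Rspo1 fell among 10 tested. The 13 listed mesothelial genes summed to 120.3, 151, 149 and 89.0 CPM in members against 154, 60.4, 70.1 and 56.8 CPM, higher in 3 of 4 libraries, and Upk3b was at 0 by the rule. The part of pericytes and mesothelium in these results was not tested.

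Of 11 tested enteric neural crest genes 5 fell and 2 rose. The neuronal tubulin gene Tubb3 was at 0, 0.878, 0 and 5.13 CPM against 27.5, 8.4, 17.2 and 16.4 CPM. Stmn2, a neuronal gene, was at 116, 9.66, 9.95 and 131 CPM in members against 12, 4.18, 11.1 and 7.60 CPM (2.67 ± 0.53, edgeR adjusted p = 0.00679), higher in 3 of 4 libraries and not called with DESeq2. In LI replicate 1 and SI replicate 2, where it was high, 10 members held 80.0% and 48.5% of its UMIs, and in each of the other libraries 8 members held all of them. Of 4 genes of interstitial cells of Cajal, Ano1 and Etv1 fell. Summed over 8 listed genes each, endothelial genes were at 5.71 to 14.8 CPM in members, leukocyte genes at 0 to 13, epithelial genes at 2.59 to 6.13 and erythroid genes at 0 to 17.3, and Kdr and Lyz2 rose and Epcam fell among them.

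Members carried more transcripts of chemokine genes. Of 9 tested genes on the list of chemokines and Csf1, 8 rose and none fell, with a median of 1.95, and 4 of the 7 that could be tested with matched comparison cells passed there. Cxcl1, which attracts neutrophils, was at 68.6, 45.7, 60.5 and 133 CPM in members against 4.23, 4.99, 5.88 and 7.51 CPM (3.70 ± 0.17, edgeR adjusted p = 3.3e-06). Cxcl13, which attracts B cells, was at 80.2, 43.5, 20.7 and 72.3 CPM against 14.2, 18.0, 2.81 and 3.0 CPM (2.80 ± 0.43), and Csf1, the macrophage growth factor gene, at 27.2, 21.1, 20.7 and 30.8 CPM against 6.45, 11.5, 9.01 and 14.4 CPM (1.21 ± 0.19). The other 4 were Cxcl5, Cxcl10, Ccl7 and Ccl11, beside Cxcl12. Ccl2, which the rule used, is left out of this count.

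The annexins and their S100 partners rose in 7 of 12 tested genes and fell in none (median 1.09), among them Anxa3 (2.00 ± 0.19) and S100a11 (1.53 ± 0.13). Of 21 immediate early and stress genes, which dissociation of tissue can raise, 16 rose and none fell (median 0.69), and 16 were higher with matched comparison cells too. Gadd45b, a DNA damage response gene, was at 148, 103, 106 and 160.0 CPM in members against 29.3, 24.1, 26.3 and 29.7 CPM (2.22 ± 0.10). Ier3, an immediate early gene, was at 146, 102, 75.8 and 106 CPM against 25.7, 19.7, 22.8 and 23.1 CPM, and Hspb1, a small heat shock protein gene, at 368 CPM in LI replicate 1 and 127 to 179 CPM in the other members against 32.0 to 47.5 CPM. The 21 genes summed to 10068, 16179, 9033 and 12314 CPM in members against 8960, 10219, 6309 and 7424 CPM. The part of this stress signal in the other results was not tested.

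Receptors and targets of Notch, a pathway of contact between neighbouring cells, were higher. Of 8 tested genes 7 rose, namely Notch1, Notch2, Jag1, Hes1, Hey1, Hey2 and Heyl, and 1 fell (median 1.68). Notch1 was at 51.8, 37.8, 26.8 and 61.2 CPM in members against 5.93, 10.3, 8.66 and 15.7 CPM (2.08 ± 0.20), and the ligand gene Jag1 at 45.3, 58.0, 50.5 and 76.6 CPM against 5.78, 25.6, 24.2 and 40.8 CPM (1.29 ± 0.24). Hes1, a target repressor, was at 311, 472, 412 and 353 CPM against 160.2, 228, 235 and 244 CPM (0.83 ± 0.10). The ligand gene Dll1 went the other way, at 0, 0, 1.53 and 3.78 CPM in members (2 and 14 UMIs in SI, and up to 3.88 and 1.32 CPM allowed by none in LI) against 2.48, 7.08, 13.9 and 18.9 CPM. Hey2 was the single gene among 6 matched on this list whose promoter held the CSL motif, on the strand of the gene at -4 from the start site in chr10:30842769-30842798 on the minus strand, shown here, and on the other strand at -207 in chr10:30842972-30843001.
Hey2 CSL window: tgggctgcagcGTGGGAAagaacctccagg

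Of 34 tested matrix genes 17 rose and 2 fell (Ctgf and Vcan), with a median of 0.72, and with matched comparison cells 14 of 27 were higher and 2 lower. Sparc, which encodes a collagen-binding glycoprotein, was at 1348 CPM in LI replicate 1 and 589, 673 and 783 CPM in the other members against 316, 268, 250.4 and 299 CPM (1.51 ± 0.13, edgeR adjusted p = 3.8e-05). Fbln2, an elastic fibre component, was at 33.6, 33.4, 30.6 and 28.3 CPM against 7.84, 6.52, 5.59 and 5.11 CPM (2.36 ± 0.15), and the members of all libraries were alike. Wisp1, which encodes a matricellular signaling protein, was at 98.3, 36.0, 47.5 and 68.0 CPM against 6.65 to 25.9 CPM (1.93 ± 0.34). Of 14 tested ADAMTS genes, which encode matrix proteases and their relatives, 4 rose and 1 fell, with Adamts1 at 1.66 ± 0.18 and Adamts9 at 1.14 ± 0.16, and Adamts19 lower.

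**Figure D4:**
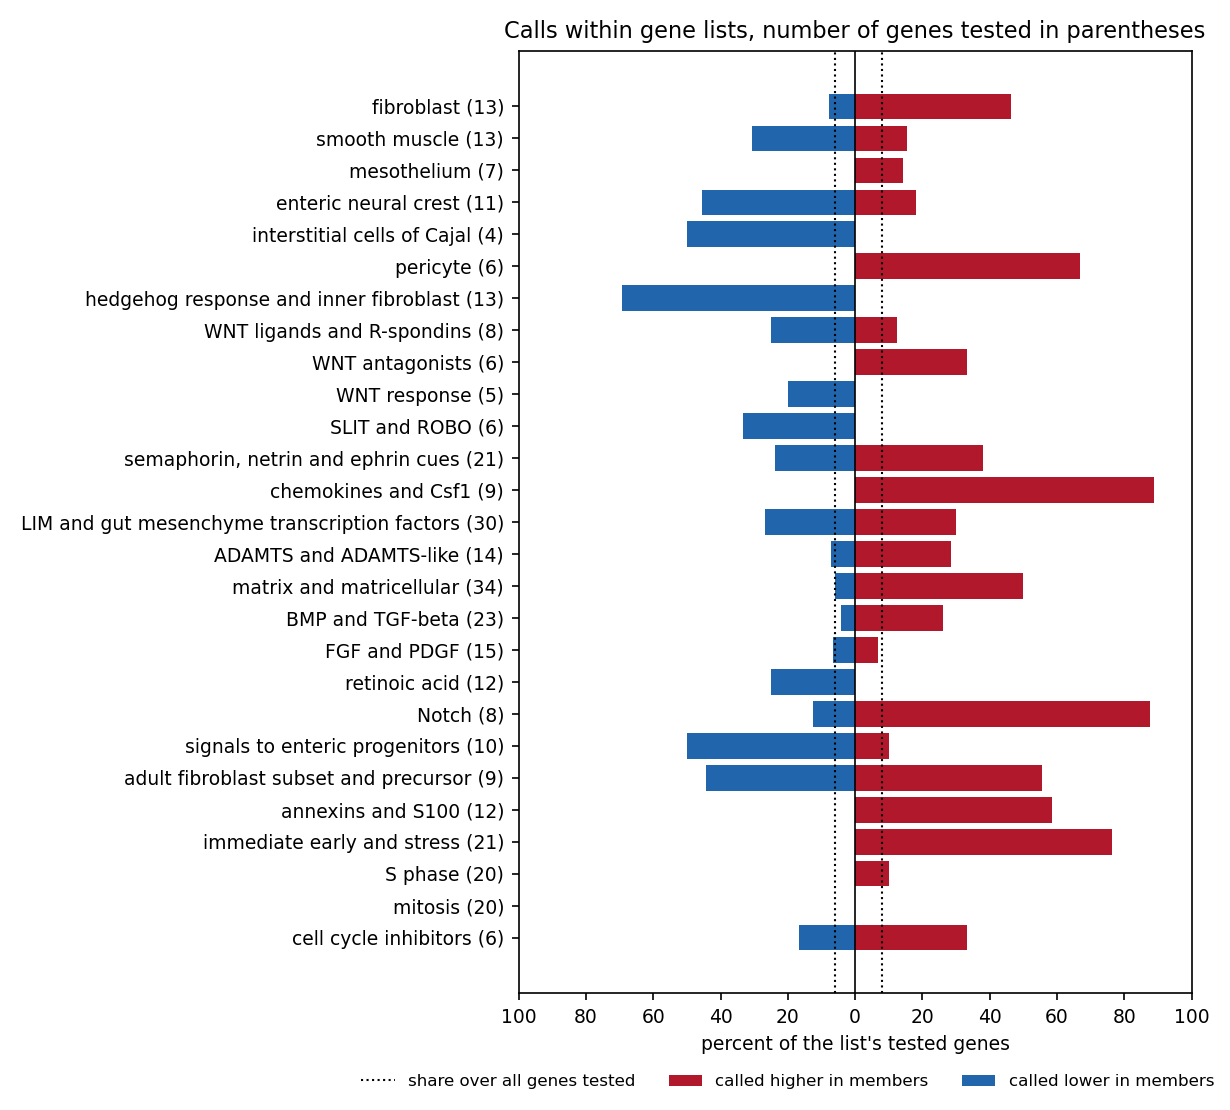
Percent of the tested genes of each list with at least 4 of them that were called higher (bars to the right) or lower (bars to the left) in members, with the number tested in parentheses and dotted lines at the shares over all genes, 8.09% and 6.11%. The longest bars are those of chemokines (8 of 9 higher), Notch (7 of 8 higher), stress genes (16 of 21 higher) and the hedgehog list (9 of 13 lower).

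The ligands and receptors related to the genes of the rule did not all go with them. Robo1 and Robo2, which encode receptors for SLIT proteins, fell in members, Robo1 from 49.1, 83.9, 33.0 and 45.9 CPM to 12.9, 44.8, 24.5 and 25.9 CPM (-0.90 ± 0.15) and Robo2 from 41.2, 49.8, 8.82 and 19.8 CPM to 19.4, 20.2, 3.06 and 8.36 CPM (-1.24 ± 0.14). Of 6 tested SLIT and ROBO genes besides Slit2, these 2 fell and none rose. Of 8 tested WNT ligand and R-spondin genes besides Wnt4, Wnt11 rose and Wnt5a and Wnt16 fell. Wnt5a was at 66.0, 185, 58.2 and 78.2 CPM in members against 256, 362, 120.3 and 169.6 CPM (-1.21 ± 0.13). Of 6 WNT antagonist genes Sfrp2 and Igfbp4 rose, by 0.80 and 0.26, and of 5 WNT response genes Nkd1 fell, a call not kept with matched comparison cells. Igfbp4 was at -0.17 and not called with the rule applied to thinned cells. None of the other 5 listed genes of the tachykinin system passed the filter on low counts over all 4 libraries. Tacr1, a tachykinin receptor gene, was at 0, 0.439, 0 and 1.08 CPM in members (1 UMI in LI and 4 in SI) against 0.258, 0.469, 0.840 and 2.69 CPM, and was tested by region and not called (edgeR adjusted p = 0.236 in SI and 0.952 in LI).

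Other guidance genes divided. Of 21 tested, 8 rose (Epha3, Epha4, Efna5, Nrp1, Sema5a, Sema6d, Unc5b and Unc5c) and 5 fell (Nrp2, Plxna2, Ntn1, Sema3a and Sema3c). Unc5c, a netrin receptor gene, was at 97.1, 86.9, 90.3 and 136 CPM in members against 14.1, 21.8, 44.0 and 59.5 CPM (1.65 ± 0.23), and its ligand gene Ntn1 at 1.29, 1.76, 3.83 and 5.93 CPM against 12, 21.9, 15.2 and 18.6 CPM (-2.26 ± 0.28). Sema3a, a secreted repellent, was at 5.18, 9.66, 2.30 and 2.97 CPM against 31.9, 48.0, 19.3 and 37.5 CPM (-2.88 ± 0.23). Of 10 tested genes that signal to enteric progenitors, 5 fell, among them Gdnf and Edn3, and Artn rose, while with matched comparison cells 4 of 7 were lower and Artn could not be tested. Gdnf, the ligand of the RET pathway, was at 5.18, 12.3, 7.66 and 15.6 CPM in members against 76.8, 75.7, 41.5 and 53.5 CPM (-2.35 ± 0.20, edgeR adjusted p = 3.8e-05), and Nrg1, a neuregulin gene, at 1.29 to 3.06 CPM against 9.80 to 28.3 CPM.

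Among 30 tested transcription factor genes 9 rose and 8 fell. Gata6, which acts in mesoderm and endoderm, was at 59.5, 14.1, 19.9 and 56.7 CPM in members against 2.32, 1.45, 1.13 and 1.06 CPM (4.58 ± 0.35, edgeR adjusted p = 1.7e-05), and in thinned cells it was found in 6.02% to 14.1% of members and 0.213% to 0.622% of comparison cells. Osr1, an early mesoderm gene, was at 67.3, 16.2, 22.2 and 54.5 CPM against 3.04, 8.66, 3.26 and 7.29 CPM (2.71 ± 0.41), and Tbx2, a T-box repressor gene, at 78.9, 57.1, 49.0 and 56.7 CPM against 7.12, 8.36, 15.0 and 11.4 CPM (2.52 ± 0.23). For each of these genes the member libraries lay above the comparison libraries. Pitx1, a homeobox gene of hindgut mesenchyme, fell, and with the regions taken apart it was called lower in LI and not in SI.

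Retinoic acid genes fell in 3 of 12 tested and rose in none. Aldh1a2, the main embryonic enzyme of retinoic acid synthesis, was at 10.4, 11, 95.7 and 55.0 CPM in members against 29.6, 66.8, 371 and 314 CPM (-2.29 ± 0.13), and Aldh1a1, a related enzyme, at 0, 5.27, 4.59 and 24.5 CPM against 4.02, 30.3, 40.8 and 164 CPM (-2.78 ± 0.16). Of 23 genes of BMP and TGF-β signaling 6 rose and 1 fell, and the antagonist gene Nog and the pseudoreceptor gene Bambi were among those that rose. Fgfr1 rose by 0.43 and Fgfr2 fell by 1.49, the only calls among 15 FGF and PDGF genes, a share near that of all genes. Fgfr2 was at 12.9, 36.0, 32.2 and 31.0 CPM in members against 50.7, 91.8, 83.6 and 91.5 CPM.

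The adult FB subset and precursor list divided, with Anxa3, Cd34, Cd81, Dpp4 and Igfbp5 higher and Cd9, Has2, Pdpn and Procr lower among 9 tested. Cdkn1c, an imprinted inhibitor of the cell cycle, was at 1775, 1932, 2167 and 2052 CPM in members against 717, 900.2, 833 and 1143 CPM (1.16 ± 0.09, edgeR adjusted p = 1.7e-05), and its levels in members lay closer together than those in comparison cells. Cdkn1b, a related inhibitor, fell by 0.43. Of 20 S phase genes Dtl and Slbp rose, by 0.34 and 0.27, a share near that of all genes, and none of 20 mitosis genes was called. With matched comparison cells no S phase gene was higher and 1 was lower, and 10 mitosis genes were lower.

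SI and LI were also taken apart. In SI 1908 of 13443 genes were called (14.2%) and in LI 1241 (9.23%), and for 146 genes (1.09%) the difference between members and comparison cells itself differed between regions by the interaction term. Ebf1, a transcription factor gene, was at 26.8 and 81.7 CPM in SI members against 4.17 and 7.46 CPM in SI comparison cells, and at 116 and 164 CPM against 97.3 and 130.2 CPM in LI. Its log2 fold change was 3.15 ± 0.17 in SI and 0.34 ± 0.13 in LI, and the difference between them was 2.81 ± 0.21 (edgeR adjusted p = 1.2e-06). Both classes were lower in SI than in LI, the comparison cells by far more than the members. Igfbp5, a binding protein of insulin-like growth factors, was at 322 and 716 CPM in LI members and 323 and 413 CPM in SI members against 396 and 530.4 CPM and 80.1 and 104 CPM (difference 1.78 ± 0.17).

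Amot, Flrt2 and Parm1 also had lower comparison cells in SI. Amot, the angiomotin gene, was at 71.2 and 100.1 CPM in LI members and 68.1 and 96.0 CPM in SI members, against 90.6 and 92.5 CPM and 18.0 and 21.3 CPM in comparison cells. Ebf1, Igfbp5, Amot, Flrt2 and Parm1 kept their calls without any one library. The whole count fell to 27 with matched comparison cells, of which 26 were among the 146. Of 20 mitosis genes 14 were higher in members in LI and 11 lower in SI, and 14 differed by the interaction term. With matched comparison cells none was higher in LI, 16 were lower in SI and none differed by the interaction term.

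Between SI and LI members, 29 of 9968 genes were called (0.291%), 14 higher in SI and 15 in LI. Of the 29, 13 were Hox genes, which pattern the body axis, out of 27 tested. Hoxa4, Hoxb4, Hoxb6, Hoxb7, Hoxb8 and Hoxc5, of paralog groups 4 to 8, were higher in SI, and Hoxa9, Hoxa10, Hoxc9, Hoxc10, Hoxd9, Hoxd10 and Hoxd11, of groups 9 to 11, were higher in LI. The split by group was not complete, since Hoxd4 (6.47 and 22.8 CPM in LI members against 1.53 and 1.89 CPM in SI, edgeR adjusted p = 0.0747) and Hoxd8 (10.4 and 20.6 against 1.53 and 5.13 CPM) lay higher in LI, though neither was called. Hoxd11 was at 66.0 and 113 CPM in LI members and at 0 and 5.93 CPM in SI members, with a log2 fold change of SI over LI of -4.43 ± 0.51 (edgeR adjusted p = 0.00416). In comparison cells it was at 270.4 and 238 CPM in LI and at 0.0646 and 5.37 CPM in SI. Hoxb4 was at 33.6 and 30.3 CPM in LI members and at 107 and 74.2 CPM in SI members (1.53 ± 0.28, edgeR adjusted p = 0.0354). Its comparison cells were at 30.4 and 39.2 CPM in LI and at 157 and 134 CPM in SI. Each of the 13 genes differed between the regions in the same direction in comparison cells, so the split was not particular to members.

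**Figure D5:**
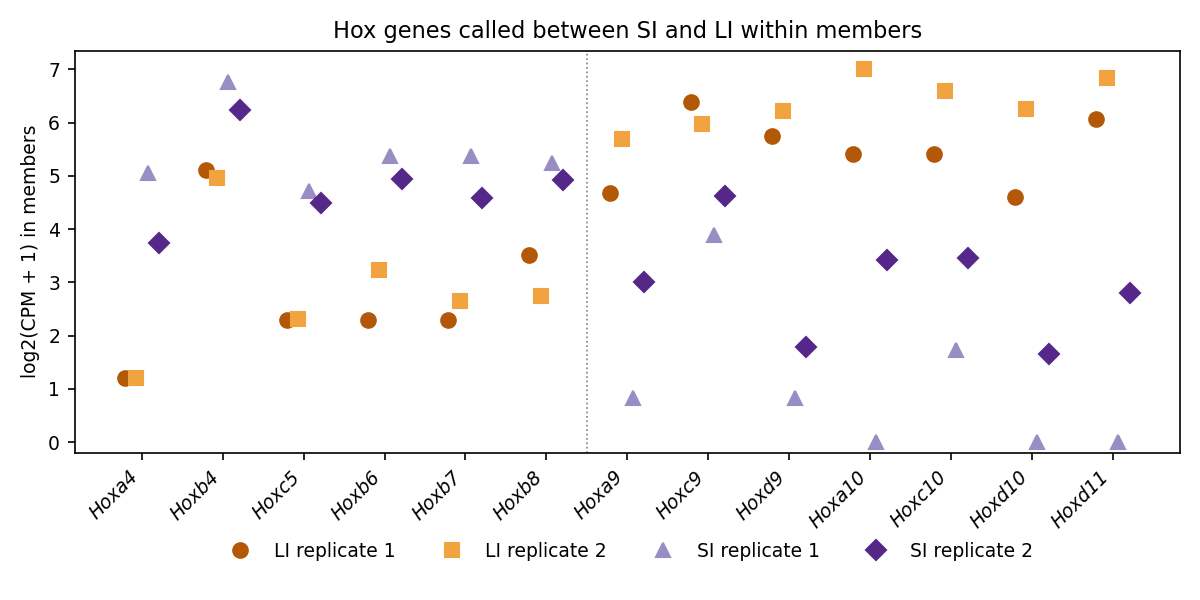
Level, as log2(CPM + 1), of the 13 Hox genes called between SI and LI, in members of each library, with those higher in SI left of the dotted line and those higher in LI right of it. For every gene both libraries of one region lie above both of the other, and Hoxa10, Hoxd10 and Hoxd11 are at 0 in SI replicate 1.

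Outside the Hox clusters, Aldh1a2 was higher in SI members (95.7 and 55.0 CPM against 10.4 and 11 CPM in LI, 2.80 ± 0.36, edgeR adjusted p = 0.00416). Alcam, a cell adhesion gene, was at 147 and 166 CPM in SI members and at 20.7 and 38.6 CPM in LI members (2.34 ± 0.28), and it was also higher in members than in comparison cells of every library, which stood at 7.32, 10.0, 34.9 and 55.8 CPM. Dlk1, an imprinted growth regulator, was at 693 and 749 CPM in SI members and at 274 and 351 CPM in LI members (1.23 ± 0.21). Sfrp1, a secreted WNT antagonist gene, was at 426 and 348 CPM against 176 and 109 CPM, and Mpped2 at 101 and 122 CPM against 22.0 and 46.5 CPM. For each of these 5 genes both SI libraries lay above both LI libraries, which the choice of genes to name had required.

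Higher in LI members were Fst, which encodes the activin-binding protein follistatin, at 128 and 553 CPM against 29.9 and 44.0 CPM in SI (edgeR adjusted p = 0.0234), and Pitx1, at 28.5 and 15.8 CPM against 0 and 0.270 CPM. Crabp1, a retinoic acid binding protein gene, was at 99.6 and 85.2 CPM in LI members and at 35.2 and 13.8 CPM in SI members (-2.01 ± 0.37). The remaining calls were Gas6, Mgp and Gm15050 in SI and Hist2h2ac, Hmcn1, Pdlim5, Vstm2l and 2600014E21Rik in LI. Without SI replicate 1 the calls of Dlk1, Sfrp1, Hoxb4, Hoxc9 and Hist2h2ac were lost, and without SI replicate 2 those of Dlk1, Crabp1 and Hist2h2ac, of 13 named genes. With 2 libraries a region, the count rested on single libraries and on the rule: without the cells of the highest doublet scores 6 genes were called, and with at least 4 genes of the rule none was (181 at an unadjusted p under 0.05).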

How the data were processed

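Droplet single-cell RNA sequencing libraries (10x Genomics, a 3′ or 5′ kit, not given by library in the sources used here) were examined for 2 SI and 2 LI samples. The authors aligned reads to mm10 and counted UMIs with Cell Ranger 3.1.0, and the deposited values were raw UMI counts of 28692 listed genes. Their later integration with Seurat (version 3) was not used here.

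Members and comparison cells were chosen by the rule given above. Scrublet in scanpy 1.11.5 marked too few doublets to be relied on, so none was removed, except in an alternative without the cells of the highest scores (0.8% per 1000 cells). UMIs of each class were added up by library and tested with edgeR 4.0.16 in R 4.3.3 (TMM, filterByExpr, quasi-likelihood F-test, Benjamini-Hochberg adjustment over all tested genes, calls under 0.05), with library as a block between members and comparison cells. The rule's 7 genes and the exclusion genes were not tested. The SE was the size of the log2 fold change divided by √F. Members summed to 772752 to 3706870 UMIs a library, and a count of 0, taken as up to 3 UMIs, allowed 0.809 to 3.88 CPM. Intervals and floors cover counting error only, and p-values measure the spread between pooled-embryo libraries, 2 a region.

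Genes named were the 12 with the largest fold change in each direction, up to 8 in each direction between SI and LI, the 6 with the smallest adjusted p of the interaction, and up to 4 called genes of each list, beside markers that define a cell type. Those taken between SI and LI were limited to genes whose SI and LI members did not overlap. Some genes that this rule names are not reported here. Members, lists and tests were chosen with earlier results of these data known. Alternatives were RLE scaling, DESeq2 1.42.0, no filter, other blocks, matched comparison cells (20 UMI bins), thinning to 3000 UMIs, other rules, subsets of cells and each library left out. Positions came from GENCODE vM21 and promoters from RefSeq. Tests were checked on simulated counts, with the spread between libraries fitted as a trend or gene by gene. False calls were 2.29% and 7.22% of calls for members against comparison cells, in this order of settings. They were 6.20% and 10.3% for the interaction and 3.51% and 10.9% between SI and LI members. Of log2 changes of 1, 80.6% and 77.0%, 51.5% and 31.6%, and 25.3% and 29.6% were recovered for the same comparisons.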

Additional observations from a re-analysis of the deposited data

Results flagged for a closer look

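For 146 genes the difference between members and comparison cells was not the same in SI and LI by the interaction term of edgeR's quasi-likelihood test, and with comparison cells matched in UMIs 27 were called. Among those of the smallest adjusted p, the difference in SI minus that in LI (log2) was 2.81 for Ebf1, 2.01 for Amot, 1.78 for Igfbp5, 2.04 for Flrt2 and 1.89 for Parm1.

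Other genes named in the text passed the same test. The difference was higher in SI for Tnc (2.19), Hoxa10 (2.32), Cxcl13 (2.08), Mpped2 (1.32), Col1a2 (1.14) and Sptssb (1.09). Hoxa10 and Mpped2 fell in LI members, by 1.33 and 1.40, and in SI neither was called, with Hoxa10 at 0 in both classes of SI replicate 1. Col1a2 rose by 2.02 ± 0.13 in SI and by 0.88 ± 0.14 in LI, with members at 258 and 268 CPM in LI and at 267 and 386 CPM in SI. The difference was lower in SI for Crabp1 (-2.48), Nefm (-1.82), Mylk (-1.35), Unc5c (-1.28), Sfrp1 (-1.28) and Hist2h2ac (-1.18). In SI members Sfrp1 fell by 0.59 (SE 0.12) and in LI members it rose by 0.69 ± 0.14. For Unc5c both regions rose, by 1.05 ± 0.14 in SI and 2.33 ± 0.17 in LI. With matched comparison cells Mpped2, Crabp1 and Mylk kept the call among these 12 genes, and the other 9 lost it, Tnc, Cxcl13, Col1a2, Unc5c and Sfrp1 among them. Groups held 2 libraries each, too few to look for single outlying libraries.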

How the results depend on the processing

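The 1796 calls between members and comparison cells became 1015 with no replicate block (library left out of the model), 662 with the rule applied to thinned cells, 1126 in cells with Pdgfra, and 1581 with matched comparison cells, of which 1196 were among the 1796. Without any filter on low counts 2353 genes were called and the share of higher genes fell from 57.0% to 41.6%, while the median of all genes moved to -0.15. Leaving out 1 library gave 946 (without SI replicate 2) to 1947, 533 (without SI replicate 2) to 2875 for SI alone, and 1220 to 1329 for LI alone, whose 1241 calls became 795 with matched comparison cells. With DESeq2 1517 genes were called, with 852 in SI and 747 in LI.

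The 146 interaction calls became 55 with DESeq2, 426 with no filter, 27 with matched comparison cells, 18 on thinned cells and 112 to 542 without 1 library. The 29 calls between SI and LI members became 17 with DESeq2, 96 with no filter, 6 without likely doublets, 14 in cells without Mki67 and Top2a, and 36 (without SI replicate 2) to 322 without 1 library. None was called by edgeR with at least 4 genes of the rule or on thinned cells (0 in both, with 181 and 64 at an unadjusted p under 0.05). SI and LI libraries share replicate numbers, and with these as a replicate block 22 genes were called, 21 of them among the 29. Labels do not say that a number marks one experiment, and replicate differences correlated at 0.110 between regions over 4801 genes, so whether a number marks one experiment is not known and the samples were taken to share only a number.

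The difference in the share of members, 1.26 percentage points, ranged from -0.208 without SI replicate 2, a reversal, to 2.72 without SI replicate 1. Of 1618 values of 112 named genes under alternatives, 1466 kept direction and call, 150 kept direction and lost the call, and 2 reversed, Igfbp4 (-0.17) and Dtl (-0.57), both on thinned cells. The causes of these changes were not tested. Depth limits the genes with few UMIs in members, and the 115 members of LI replicate 1 held the fewest.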

Other observations

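A few further genes, chosen after their values were seen, also changed with the number of rule genes found in a cell. Kcnj8 went from 1.2, 2.8, 5.9 and 11.9 CPM in cells with none to 62.3, 26.2, 38.4 and 77.1 CPM in cells with 4 or more (LI replicate 1, LI replicate 2, SI replicate 1 and SI replicate 2). Gata6 went from 2.3, 1.4, 1.1 and 1.1 CPM to 59.1, 17.9, 19.2 and 67.4 CPM in the same order, and Cdkn1c from 717, 900.2, 833 and 1143 CPM to 2146, 2292, 2510.0 and 2129 CPM. Acta2 parted between the LI libraries, from 218 to 3268 CPM in LI replicate 1 and from 1085 to 187 CPM in LI replicate 2. Over all 4 libraries, Acta2 rose from 3 to 4 or more genes in 3 and fell in 1.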
